A study of Mus musculus with 17 samples.

Results

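Neutrophils carry their antimicrobial proteins in granules that are filled in a fixed order. Azurophil granule proteins are made first, in promyelocytes, specific (secondary) granule proteins follow in myelocytes and metamyelocytes, and gelatinase granule proteins come last. The 8 genes described here, of the 35285 in the deposited table, belong mainly to the middle stage: Olfm4, Mmp8, Chil3, Camp, Ngp, Ltf, Lcn2 and Cd177. They were found by their gene symbols, and each symbol had 1 row. Olfm4 and Mmp8 were chosen by their FPKM values in the brimonidine and NE libraries, which the study singled out, and the other 6 were added as genes of the same granule programme with those values known. Differences between these groups are therefore given as descriptions with no test. All 8 passed the filter on low values in every comparison (FPKM of at least 1 in at least 3 libraries).

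The study exposed C57BL/6J mice (wild type, male, 8 weeks old when obtained), a strain that carries the Cdh23 allele linked to early hearing loss, to loud sound. The control group (n = 3) had saline injections and no noise. The NE group (n = 7) had noise of 8 to 16 kHz at 100 dB for 2 h, and the brimonidine group (n = 7) had the same noise with brimonidine, an agonist of alpha-2 adrenergic receptors, at 1 mg/kg in 3 intraperitoneal injections. Whether NE mice were also injected is not given in the sources used here. Injection and drug therefore cannot be told apart between the NE and brimonidine groups, nor injection and noise between the NE and control groups. RNA came from the cochleae of 17 mice 2 days after exposure, and 14457733 to 18288854 fragments were counted per library. A level is given as FPKM (fragments counted on a gene, scaled to its exon length and the library total), which is per length and so comparable between genes, and a difference as a log2 fold change of FPKM + 1 with its standard error (SE). A gene was called where limma's adjusted p was under 0.05 and the log2 fold change was at least 1 in size.

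Control 2 stood apart from the other controls before any group was compared. All 8 members were lower there than in controls 1 and 3, at 0.194 to 0.307 of their mean for 7 members and at 0.591 for Olfm4. The other neutrophil genes were also lower there: the median gene was at 0.220 of the other controls for 19 further secondary granule and myelocyte genes, at 0.284 for 12 early neutrophil genes, azurophil granule genes among them, and at 0.225 for 21 gelatinase granule and late neutrophil genes. Ccl6, a chemokine gene, was the exception among these 52 genes, at 1.29. Markers of most non-immune cell types were higher in control 2, with a median gene at 2.62 times the other controls for cerebellar and hindbrain markers, at 2.34 for cochlear epithelium and at 3.25 for erythroid genes, against 1.07 over 15360 genes. The members' log2 differences from the control group are given below with and without this library.

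**Figure D1:**
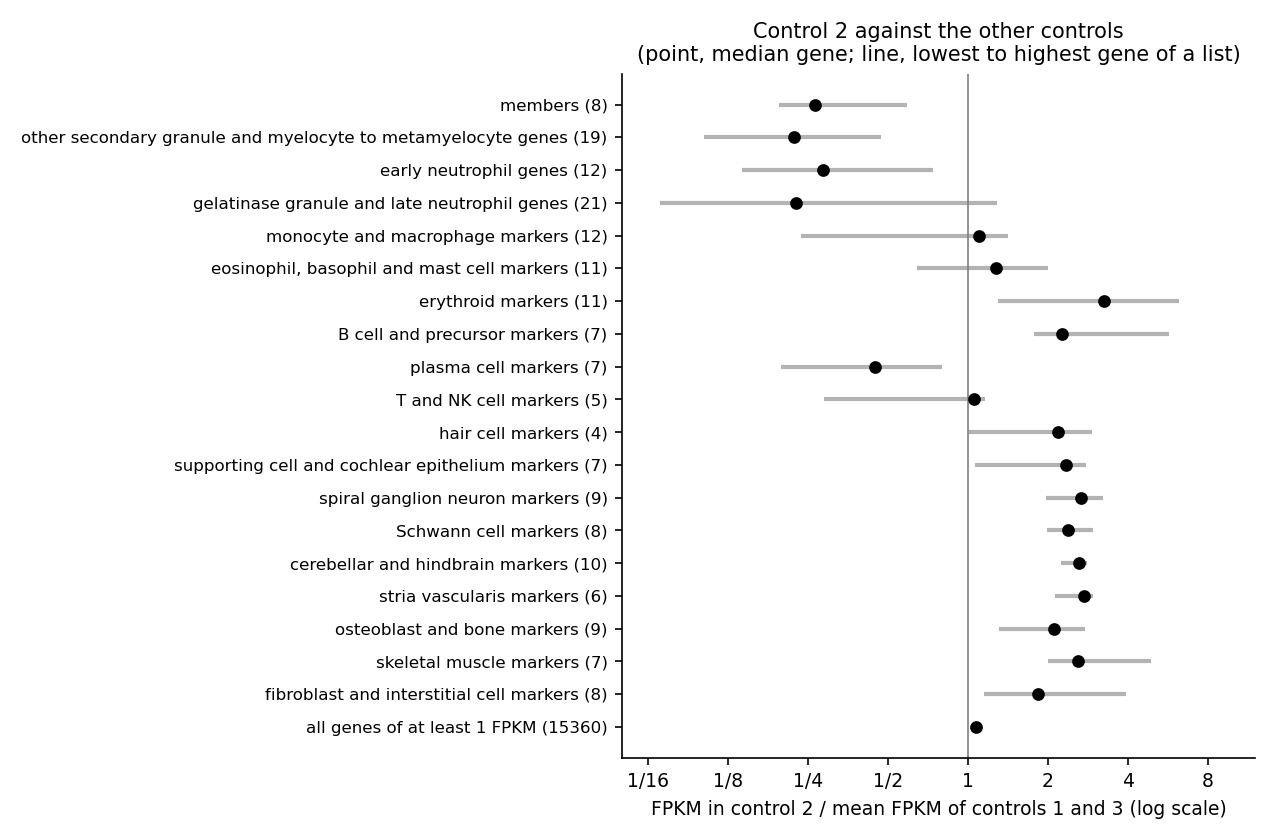
FPKM in control 2 divided by the mean of controls 1 and 3 on a log2-spaced axis, by gene list (number of genes in parentheses). Points are the median gene and lines run from the lowest to the highest gene of a list. The neutrophil lists have medians between 0.220 and 0.284 and the members 0.265, while the medians of cerebellar, neuronal and erythroid markers lie above 2.

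The labels call the samples cochlear cells of the interstitial type, and neutrophil transcripts were among the most abundant in them. The 8 members alone held 3.69 to 5.89% of the summed FPKM of an NE library, 4.18 to 5.36% of a brimonidine library, 3.88 and 4.13% of controls 3 and 1, and 1.21% of control 2. The 8 fibroblast and interstitial cell markers listed summed to between 622 and 1365 FPKM per library, against 4326 to 23877 FPKM for the members. In tissue RNA of this kind, fewer cells of a type and less RNA per cell cannot be told apart.

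The sequences before the starts of the 3 members that stood highest under brimonidine relative to NE, and of the most abundant member, are shown because the factor C/EBP-epsilon (Cebpe) is known to drive the secondary granule programme. Sequences are from RefSeq (GRCm38.p6), for which all 8 members had an entry, and cover the 250 bases before the RefSeq gene start or as much of them as precedes the first exon annotated within them. For Olfm4, GENCODE M21 starts the gene further upstream than RefSeq and the deposited table do, so the stretch shown lies between exons of that longer annotation. Capitals mark matches to TTNNGNAA, a C/EBP motif, on either strand.

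Olfm4 (chr14:80000052-80000250, plus strand): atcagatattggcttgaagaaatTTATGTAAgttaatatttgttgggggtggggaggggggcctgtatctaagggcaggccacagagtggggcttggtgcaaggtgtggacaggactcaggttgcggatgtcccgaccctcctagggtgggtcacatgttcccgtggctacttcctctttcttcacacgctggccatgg

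Mmp8 (chr9:7558179-7558428, plus strand): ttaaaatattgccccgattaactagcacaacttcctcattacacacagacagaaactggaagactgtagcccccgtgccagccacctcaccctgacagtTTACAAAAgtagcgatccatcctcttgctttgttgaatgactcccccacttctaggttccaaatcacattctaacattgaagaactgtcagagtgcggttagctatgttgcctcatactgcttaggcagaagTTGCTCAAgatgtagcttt

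Chil3 (chr3:106167565-106167814, minus strand): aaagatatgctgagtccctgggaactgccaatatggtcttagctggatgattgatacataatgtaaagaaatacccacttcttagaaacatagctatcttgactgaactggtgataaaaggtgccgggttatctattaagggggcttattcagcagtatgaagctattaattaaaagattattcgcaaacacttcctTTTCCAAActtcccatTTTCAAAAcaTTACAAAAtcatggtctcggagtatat

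Ngp (chr9:110419558-110419746, plus strand): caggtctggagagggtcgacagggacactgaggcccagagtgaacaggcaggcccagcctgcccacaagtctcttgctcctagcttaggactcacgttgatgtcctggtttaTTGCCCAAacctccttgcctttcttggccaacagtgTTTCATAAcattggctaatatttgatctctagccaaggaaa

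Within the full 250 bases, 7 of 8 members held the C/EBP motif, all but Camp, against 36.8% of 32851 promoters. Counting only the bases before such exons, 6 of 8 held it, since the Lcn2 window lies wholly inside the gene as the table places it. The ETS-family motif GGAAGT was present in Olfm4, Mmp8, Chil3 and Cd177, against 19.7% of all promoters, and the RUNX motif TGTGGT in 0 of 8, against 14.0%. In Chil3 a match of the C/EBP motif and a match of GGAAGT shared 1 base. The letters ATAA, looked for 45 to 20 bases before the start on the gene's own strand after the sequences had been seen, occurred in Olfm4, Ltf and Cd177, against 8.82% of promoters. These are matches of letters, not binding sites.

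Olfm4 encodes olfactomedin 4, a specific granule glycoprotein found in only a subset of neutrophils, and lies on mm10 at chr14:80000302-80021930 (ENSMUSG00000022026) in the deposited table, while GENCODE M21 extends the gene at both ends. Its FPKM is used as deposited, and the exon length behind it, 1640 bases, was solved from the values rather than taken from an annotation. Its level was 32.6, 18.7 and 30.6 FPKM in controls 1, 2 and 3. In the NE group it had a lowest value of 26.1, a median of 29.7 and a highest value of 32.3 FPKM, and in the brimonidine group 33.4, 44.8 and 47.5 FPKM. All 7 brimonidine libraries lay above all 7 NE libraries and all 3 controls, while NE libraries and controls 1 and 3 overlapped. Brimonidine 3, the lowest of its group, was closest to the NE libraries. The mean was 29.6 ± 2.01 FPKM (SD, n = 7) under NE and 43.1 ± 4.86 FPKM (SD, n = 7) under brimonidine, a ratio of 1.46 and a log2 fold change of 0.52 (SE 0.07). Across all 15707 genes tested, 0.102% had every brimonidine library above every NE library. Since this contrast chose the gene, nothing is read from that count.

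Mmp8, on mm10 at chr9:7558456-7568485 (ENSMUSG00000005800), encodes neutrophil collagenase, which cleaves fibrillar collagens. It stood at 367, 95.6 and 354 FPKM in controls 1, 2 and 3. NE libraries ran from 293 through a median of 368 to 407 FPKM, and brimonidine libraries from 382 through 472 to 517 FPKM. The groups overlapped, with 5 of 7 brimonidine libraries above every NE library and brimonidine 1 and 4 within the NE range. The mean was 361 ± 38.4 FPKM (SD, n = 7) under NE and 457 ± 53.6 FPKM (SD, n = 7) under brimonidine, a log2 fold change of 0.34 (SE 0.09).

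Chil3 encodes a chitinase-like protein, Ym1, that is abundant in mouse neutrophil precursors and also made by macrophages, and lies at chr3:106147554-106167564 (ENSMUSG00000040809). Controls 1, 2 and 3 had 1139, 400.4 and 1471 FPKM. NE libraries ran from 1253 through 1521 to 1848 FPKM and brimonidine libraries from 1705 through 1947 to 2303 FPKM. Here too 5 of 7 brimonidine libraries lay above every NE library, and the log2 fold change between these groups was 0.35 (SE 0.10). Its near-identical copy Chil4 was at most 1.88 FPKM in any library, and reads that fit either copy could be split between them. Of 12 monocyte and macrophage markers, 11 had a positive difference between the brimonidine and NE groups, with a median of 0.05. Of the 12, 0 were called (limma), as were 0 of all 15707 genes tested. The markers' summed level was 730 to 912 FPKM under NE and 733 to 880 FPKM under brimonidine. Their part in the Chil3 difference was not tested.

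The remaining 5 members had log2 differences of -0.11 to 0.04 between the 2 exposed groups. Camp, the cathelicidin antimicrobial peptide (chr9:109847379-109849617, ENSMUSG00000038357), had 3052, 844 and 2949.7 FPKM in controls 1, 2 and 3, 2456 to 4037 FPKM (median 2885) under NE and 2676 to 4446 FPKM (median 2777) under brimonidine. Its log2 fold change between brimonidine and NE was 0.04 (SE 0.14), and its brimonidine range was widened by brimonidine 2, the highest library of all. Ngp, a cathelicidin-related granule protein (chr9:110419747-110423012, ENSMUSG00000032484), was the most abundant member, at 8244, 1951 and 6735 FPKM in controls 1, 2 and 3. It ran from 7487 through 8337 to 11907 FPKM under NE and from 7774 through 8534 to 9752 FPKM under brimonidine, a log2 fold change of -0.01 (SE 0.13). Camp, Ngp and Ltf lie on the same chromosome, between 109847379 and 111042767.

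Ltf encodes lactoferrin, the iron-binding protein of specific granules (chr9:111019271-111042767, ENSMUSG00000032496). It had 2359, 591 and 2091 FPKM in controls 1, 2 and 3, ran from 2255 through 2628 to 2865 FPKM under NE and from 2073 through 2479.9 to 2539 FPKM under brimonidine. It was the only member of which 0 of 7 brimonidine libraries exceeded the NE mean, with a log2 fold change of -0.11 (SE 0.09). Lcn2, a siderophore-binding lipocalin (chr2:32384633-32388252, ENSMUSG00000026822), had 1568 FPKM in controls 1 and 3 and 305 in control 2, with 1331 to 2102 FPKM (median 1607) under NE and 1444 to 1955 FPKM (median 1542) under brimonidine. Cd177, a surface glycoprotein of a subset of neutrophils (chr7:24743983-24760311, ENSMUSG00000052212), had 584, 120.4 and 544 FPKM in controls 1, 2 and 3, 478 to 721 FPKM (median 572) under NE and 475 to 602 FPKM (median 561) under brimonidine. The log2 fold change between brimonidine and NE was -0.03 for each of these 2 genes (SE 0.10 and 0.09), and their exposed groups overlapped almost fully.

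**Figure D2:**
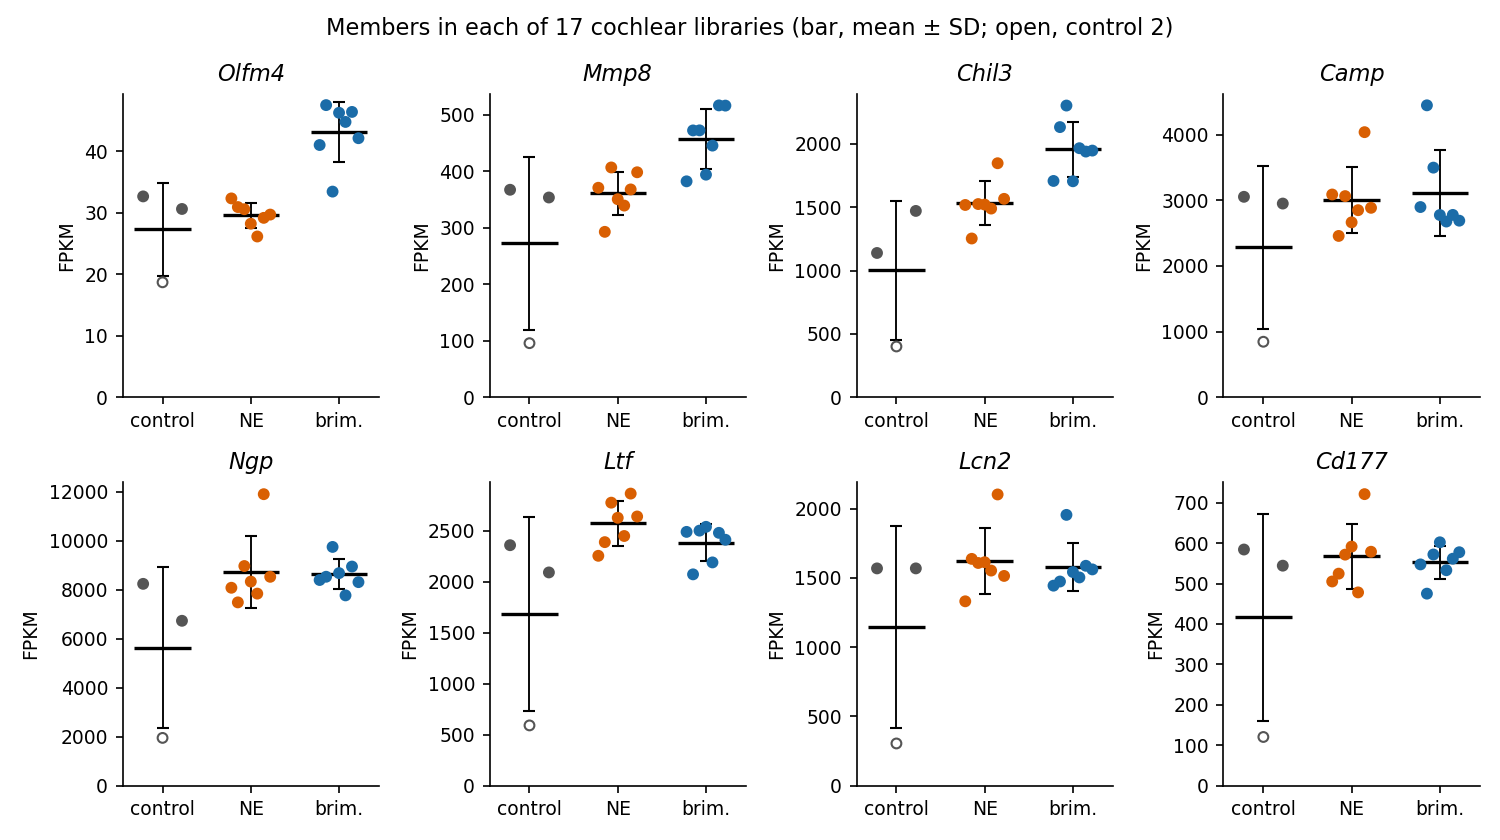
FPKM of the 8 members in each of the 17 libraries, on linear axes that start at 0. Points are libraries, the open point is control 2, and bars give the mean ± SD of a group (n = 3, 7 and 7). Brimonidine libraries lie above all NE libraries for Olfm4 only, with 5 of 7 above them for Mmp8 and for Chil3.

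NE 6 was the highest NE library for 6 of 8 members (Chil3, Camp, Ngp, Ltf, Lcn2 and Cd177), but not for Olfm4 or Mmp8, and NE 2 was the lowest for Mmp8, Chil3, Camp and Ngp. In the brimonidine group, brimonidine 3 was highest for Chil3, Ngp and Lcn2 and lowest for Olfm4. The coefficient of variation of the members ran from 6.80 to 16.9% under NE and from 7.11 to 21.1% under brimonidine, against 27.6 to 63.6% in the control group.

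The other neutrophil genes were measured in the same libraries. Of 53 listed genes of the other 3 neutrophil lists, 52 were tested between the brimonidine and NE groups. By limma or by limma-voom on recovered fragments 0 were called, as were 0 of all 15707 genes tested, so this count is not particular to them. An unadjusted p under 0.05 (limma) was seen for 5 (9.62%), against 5.77% of all genes (Myb, Cebpa, Cxcl2, Il1b and Slpi). In all, 34 of the 52 had a positive and 18 a negative difference, the median was 0.03 against 0.01 over all genes tested, and none reached the log2 fold change of Mmp8, the highest being 0.28 for Ccl6. Cebpe, the granule programme's transcription factor, had 125 ± 14.4 FPKM under NE and 124 ± 15.0 FPKM under brimonidine (SD, n = 7 each). The most abundant genes of the secondary granule and myelocyte list were Ifitm6, an interferon-induced membrane protein gene, with a log2 fold change of 0.05, Hp (haptoglobin) with 0.02, Anxa1 (annexin A1) with -0.05 and Wfdc21 with 0.09. Slpi, an inhibitor of neutrophil elastase, was the lowest of that list at -0.64 (adjusted p = 0.633, limma).

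The list of 12 early neutrophil genes holds azurophil granule genes and other genes of early stages, such as the transcription factor genes Cebpa, Myb and Gfi1. All 12 had a positive difference between the brimonidine and NE groups, with a median of 0.05, highest for Cebpa (0.26) and Myb (0.16). None was called, nor was any of the 15707 genes tested. The most abundant were the serine proteases Elane (log2 fold change 0.07), Prtn3 (0.01) and Ctsg (0.04), followed by Mpo, myeloperoxidase, at 386 ± 59.4 and 399 ± 49.4 FPKM (SD, n = 7 each). Of the 21 gelatinase granule and late neutrophil genes, 12 had a positive and 9 a negative difference. Their most abundant genes were the calprotectin subunits S100a9 (-0.03) and S100a8 (-0.01), then Retnlg (0.22) and Mmp9, gelatinase B (0.06), and Csf3r, the G-CSF receptor, was at 0.01. The cytokine gene Il1b had 92.7 ± 48.1 FPKM under NE and 40.8 ± 12.7 FPKM under brimonidine (SD, n = 7 each), a log2 fold change of -1.11 (limma adjusted p = 0.334), and the chemokine gene Cxcl2 had -0.91 (limma adjusted p = 0.757).

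**Figure D3:**
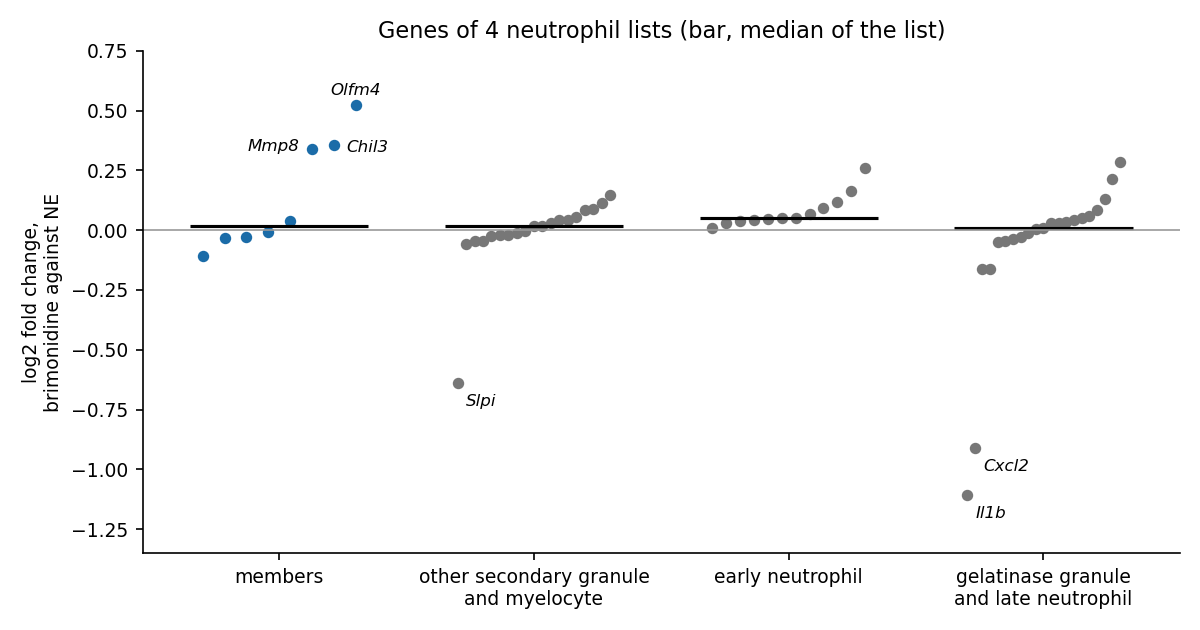
Log2 fold change of the brimonidine group against the NE group for each tested gene of 4 neutrophil lists, ordered within a list, with the list median as a bar. Olfm4 (0.52), Chil3 (0.35) and Mmp8 (0.34) lie above the highest gene of the other lists (0.28), and Il1b, Cxcl2 and Slpi lie lowest.

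The members were also set against the other neutrophil genes of their own library. Each member's log2 level was taken relative to the median of the 53 other neutrophil genes in the same library, an alternative chosen after seeing the data. Relative to that median, Chil3 ran from 3.44 to 3.66 under NE and from 3.70 to 4.04 under brimonidine, so that 7 of 7 brimonidine libraries lay above every NE library, as for 0.00637% of 15707 genes on this scale. Nothing is read from that share, since the members were chosen with these values known. For Olfm4 and for Mmp8, 6 of 7 did. Olfm4 ran from -2.38 to -1.85 under NE and from -2.09 to -1.38 under brimonidine, and brimonidine 3 was the library inside the NE range. The group difference was 0.49 for Olfm4, 0.32 for Chil3 and 0.30 for Mmp8, and between -0.14 and 0.01 for the other 5 members. Olfm4 in control 2 stood at -0.59, above every other library on this scale.

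**Figure D4:**
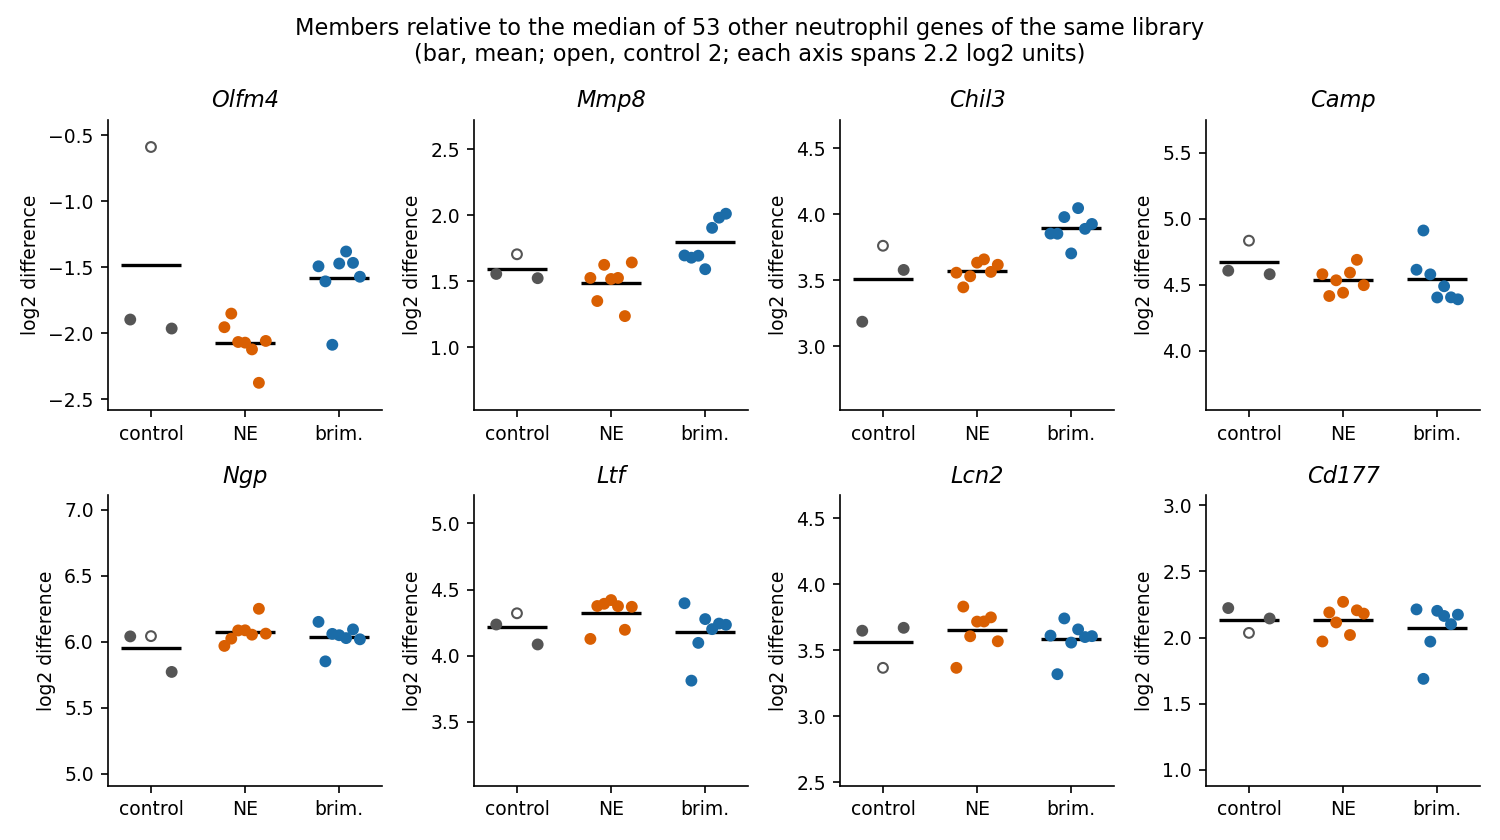
Log2(FPKM + 1) of each member minus the median log2(FPKM + 1) of 53 other neutrophil genes in the same library. Points are libraries (open, control 2), bars are group means and each axis spans 2.2 log2 units. Chil3 separates the brimonidine from the NE libraries, and Olfm4 and Mmp8 do so except for 1 library each.

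The NE group was compared with the control group to ask which genes differed after exposure. Controls had saline injections and injection of NE mice is not given, so noise and injection cannot be told apart here. All 8 members had higher means in the NE group, by 0.15 (Olfm4) to 0.86 (Ngp) on the log2 scale, although Olfm4 (-0.59), Mmp8 (-0.11) and Camp (-0.14) were lower there relative to the other neutrophil genes. Without control 2 these relative differences were -0.14, -0.05 and -0.06. Of the 6 members tested, 0 were called, where 5.76% of 15950 genes were called in either direction and 0.27% as higher. No p is given for Olfm4 and Mmp8, because the contrast that chose them shares the NE libraries. The other 6 were added with the NE values known, so their p-values are descriptions too. In limma, Chil3 alone of the 6 had an unadjusted p under 0.05, as 32.9% of all genes did, adjusted p-values ran from 0.143 (Chil3) to 0.328 (Camp) in limma, and limma-voom also called 0. An exact two-sided permutation test gave an unadjusted p of 0.033 for Chil3 and for Ltf, and of 0.067 to 0.38 for the other 4. The controls averaged 1003 ± 548 FPKM of Chil3 (SD, n = 3) and the NE libraries 1532 ± 174 FPKM (SD, n = 7), a log2 fold change of 0.80 (SE 0.35). Ngp had 5643 ± 3285 FPKM (SD, n = 3) and 8738 ± 1477 FPKM (SD, n = 7), with 4 of 7 NE libraries above all controls. For 0 of 8 members every NE library lay above every control, as it did for 3.24% of genes, and for 0 of 8 every NE library lay above controls 1 and 3, as it did for 5.33% of genes.

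Without control 2 the differences from the control group lay between -0.10 (Olfm4) and 0.23 (Chil3), and with array weights, which weight each library by its estimated precision, between -0.049 (Olfm4) and 0.30 (Ngp). Without control 2, Camp (-0.01), Cd177 (-0.0029), Mmp8 (-0.0052) and Olfm4 had negative differences, and adjusted p-values of the 6 tested members ran from 0.487 to 0.995 (limma). The median over the 3 other neutrophil lists together was 0.74 with all libraries, with 52 of 52 genes positive, 0 called by limma or limma-voom and 14 (26.9%) at an unadjusted p under 0.05, against 32.9% of all genes. Gfi1, a transcription factor of early granulocytes, was the 1 gene of these with an adjusted p under 0.05 (0.038, limma), at a log2 fold change of 0.74. Over all 15950 genes, 2247 had such an adjusted p, 338 of them higher under NE. Without control 2, 34 of 52 genes were positive. Per list, the medians without control 2 were 0.06 for secondary granule and myelocyte genes, 0.10 for early neutrophil genes and 0.06 for gelatinase granule and late neutrophil genes, against -0.02 over all genes that were tested with the 3 controls.

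Brimonidine with noise was compared with the control group by the same test, with the same 3 control libraries. The 6 members tested were added with the brimonidine values known, so their p-values are descriptions and no support is read from a call. Of these 6, Chil3 was the 1 called, where 5.73% of 15947 genes were called in either direction and 0.169% as higher. Its log2 fold change was 1.15 (SE 0.35, adjusted p = 0.0496, limma), with 1957 ± 215 FPKM under brimonidine (SD, n = 7), and an exact two-sided permutation test gave p = 0.017, the smallest it can give with 7 against 3. The same exact permutation test gave p = 0.033 for Ngp and 0.083 to 0.42 for the other 4 members tested. The adjusted p lay close to the threshold and ran from 0.00698 to 0.471 over the alternatives. Relative to the other neutrophil genes of its library Chil3 was not called and was higher by 0.38 on the log2 scale (limma adjusted p = 0.212), or by 0.51 without control 2 (limma adjusted p = 0.0393), under the minimum fold. With array weights it was higher by 0.42 (limma adjusted p = 0.0306), also under it. Without control 2 the log2 fold change was 0.59 (SE 0.15, adjusted p = 0.0405, limma), under the minimum fold, and leaving out any 1 brimonidine library gave adjusted p-values of 0.0749 to 0.0832 (limma) with log2 fold changes of 1.11 to 1.18. The remaining tested members had log2 fold changes of 0.64 (Camp) to 0.85 (Ngp) and adjusted p-values of 0.199 to 0.286 (limma).

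Olfm4 and Mmp8 are given here with no p, since the contrast that chose them shares the brimonidine libraries. The controls averaged 27.3 ± 7.54 FPKM of Olfm4 (SD, n = 3), and brimonidine was higher by 0.67 (SE 0.16), or by 0.43 (SE 0.12) without control 2. Relative to the other neutrophil genes the difference was -0.10 with control 2 and 0.35 without it. The controls averaged 272 ± 153 FPKM of Mmp8 (SD, n = 3), and brimonidine was higher by 0.97 (SE 0.35), or by 0.33 (SE 0.13) without control 2 and by 0.20 relative to the other neutrophil genes (0.25 without control 2). For Olfm4, Mmp8 and Chil3 every brimonidine library lay above every control, as for 5.07% of genes, and also above controls 1 and 3 alone, as for 8.13% of genes, whereas Camp, Ngp, Ltf, Lcn2 and Cd177 overlapped the controls. Without control 2, Camp, Ngp, Ltf, Lcn2 and Cd177 differed from the controls by -0.03 (Cd177) to 0.21 (Ngp).

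**Figure D5:**
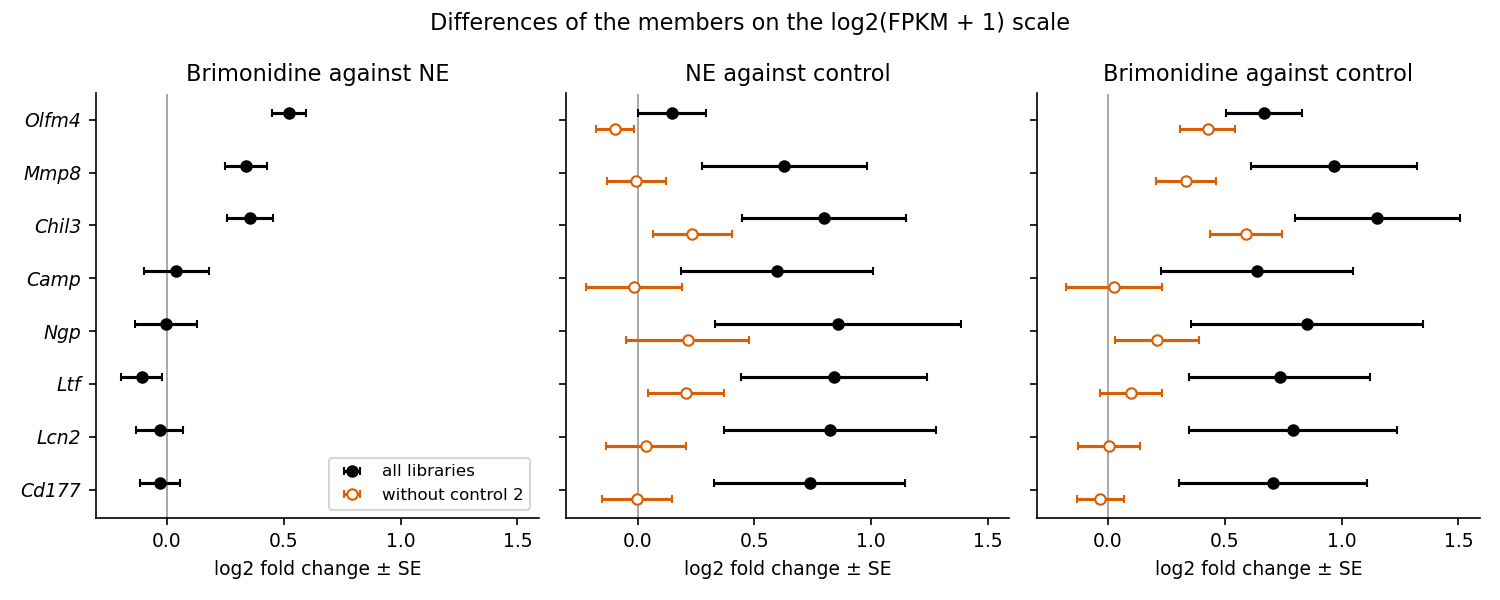
Log2 fold change ± SE of the 8 members in the 3 comparisons, with all libraries (filled) and, for comparisons with the control group, without control 2 (open). Without control 2 the differences of NE from control lie between -0.10 and 0.23, and those of brimonidine from control between -0.03 and 0.59, highest for Chil3, Olfm4 and Mmp8.

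The 3 other neutrophil lists had a median of 0.75 between brimonidine and control, with 51 of 52 genes positive, 0 called by limma or limma-voom and 19 (36.5%) at an unadjusted p under 0.05, against 35.6% of all genes. Without control 2 the median was 0.08, with 35 of 52 genes positive and 0 called (limma, 7 at an unadjusted p under 0.05). Of the 52, 33 exceeded the log2 fold change of Olfm4, 4 that of Mmp8 and 0 that of Chil3. For NE against control these counts were 52, 35 and 16. Gfi1 again was the 1 gene with an adjusted p under 0.05 (0.023, limma). Over all 15947 genes, 2518 had such an adjusted p, 553 of them higher under brimonidine.

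Cerebellar and hindbrain markers were higher in controls 1 and 3 as well as in control 2 than in both exposed groups. Of 10 cerebellar and hindbrain markers, 9 were called lower in each exposed group than in the control group. Over all genes tested, 5.76% (NE) and 5.73% (brimonidine) were called in either direction. Of the 10 markers, 0 were at 0 in all libraries. Their summed level was 418 to 1043 FPKM in the control group, 108 to 140 FPKM under NE and 86.4 to 211 FPKM under brimonidine. Cbln1, a cerebellar granule cell gene, for instance had 35.3, 89.9 and 32.1 FPKM in controls 1, 2 and 3 and means of 1.25 and 2.56 FPKM in the NE and brimonidine groups. The 7 skeletal muscle markers all had positive differences from the control group in both exposed groups. Only 3 were called higher under NE and 0 under brimonidine, against 0.27% and 0.169% of all genes. Their sums were 182 to 219 FPKM in controls 1 and 3, 358 to 878 FPKM under NE and 287 to 739 FPKM under brimonidine. Control 2, at 500.4 FPKM, lay within both exposed ranges. Without control 2, 6 of 8 tested cerebellar and hindbrain markers were called lower under NE and 8 of 10 under brimonidine, and 6 and 3 of 7 muscle markers were called higher. Over all genes tested without it, 340 of 15431 were called lower and 28 higher under NE. Under brimonidine 450 of 15535 were called lower and 18 higher. The part of these markers in the members' differences from the control group was not tested.

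Between the 2 exposed groups, median differences of brimonidine against NE were 0.11 for the 6 cerebellar and hindbrain markers tested there and -0.18 for 7 skeletal muscle markers. They were 0.25 for 11 erythroid genes, -0.33 for 7 plasma cell genes, -0.22 for 10 B cell genes and 0.10 for 11 eosinophil, basophil and mast cell genes. Of these lists 0 genes were called, as were 0 of all 15707 genes tested in this comparison. Spiral ganglion (-0.14) and Schwann cell markers (-0.04), supporting cell markers (0.04) and fibroblast markers (0.02) were also without a called gene. Hair cell markers were scarce, with Slc26a5, Atoh1 and Chrna9 under 1 FPKM in every library and a sum over 10 genes of 14.4 to 32.5 FPKM.

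Across the 17 libraries, each centred on its group, the members followed each other closely, but Olfm4 least. Pearson's r of log2(FPKM + 1) with the mean of the other 7 was 0.70 for Olfm4 and 0.90 (Camp) to 0.98 (Ngp) for the rest, and Spearman's rho was 0.42 for Olfm4 and 0.65 to 0.93 for the rest. Control 2, in which all of them were low, is among these points. Without centring, r was again lowest for Olfm4 (0.63), but rho was 0.48 for Olfm4 and lower for Lcn2 (0.26), Camp (0.39), Ltf (0.40) and Cd177 (0.42). In the 14 exposed libraries alone, r was -0.29 for Olfm4, 0.39 for Mmp8, 0.75 for Chil3, 0.51 for Camp, 0.44 for Ltf, 0.60 for Lcn2, 0.59 for Cd177 and 0.93 for Ngp. These values are descriptions over libraries that differed in the level of neutrophil genes and in depth, and the part of either was not tested.

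Among the 10 genes other than members with the pattern most like the members' mean, out of 15007, were Hmgn2-ps1, Actr3, Pilra, Fgr, Fpr2, Ncf1, Lcp1, Pi16 and Pygl, with r between 0.989 and 0.994 and rho between 0.880 and 0.963 over 17 libraries. Ncf1 encodes a cytosolic subunit of the phagocyte NADPH oxidase, Fpr2 a formyl peptide receptor, Fgr a Src-family kinase of myeloid cells and Lcp1 the actin-bundling protein plastin of leukocytes. Hmgn2-ps1 is a pseudogene that can share reads with its parent gene, so its value is uncertain. In the 14 exposed libraries alone, Actr3 and Pi16 of these genes were again among the 10 most alike.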

How the data were processed

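RNA was measured in 17 cochlear libraries made with a TruSeq Stranded mRNA kit. The authors deposited 1 table of FPKM values for 35285 genes, with fragments divided by exon length and library total and no further scaling. The submitters' processing notes name Trimmomatic, HISAT2, Cufflinks, HTSeq and mm10, with no versions. With merged exon lengths of GENCODE M21, 91.3% of positive values gave whole fragments (tolerance 0.02), and 99.8% of genes above 0 after lengths were solved for the rest. The 8 members and all 19 gene lists were chosen with earlier results of these data known.

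Genes with FPKM of at least 1 in at least 3 compared libraries were tested with limma 3.58.1 (R 4.3.3; lmFit, eBayes with trend) on log2(FPKM + 1), 2 groups per fit, with Benjamini-Hochberg adjustment over all genes. The log2(FPKM + 1) scale understates changes of low genes. Groups came from the sample labels. Named genes were the members, the 4 most abundant genes and any called gene of each neutrophil list, Cebpe, Mpo, Elane, Csf3r and S100a8, and the 10 genes most like the members, of which 1 is not reported here. Slpi, Il1b, Cxcl2, Ccl6, Gfi1, Myb, Cebpa and Chil4 were named after their values were seen. Alternatives were other pseudocounts, filters, scalings, weights, a block and left-out libraries, and, added later, limma-voom on recovered fragments and scaling to neutrophil genes, with and without control 2. The procedure was tested on simulated data in which both groups of a comparison had the spread of the first-named group. The wider spread of the control group was therefore not covered. Identity between member proteins was not analysed here.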

Additional observations from a re-analysis of the deposited data

Results flagged for a closer look

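In groups of 7, the highest or lowest library was compared with its nearest neighbour, and its gap had to exceed 0.568 of the group's range. Of 16 groups (8 members in NE and in brimonidine), 4 met this, where chance gives about 1 in 20. The same libraries recur for all members, so the 16 are not independent and no excess over chance is read from this count. In the NE group, NE 6 was far above the other libraries for Camp (4037 FPKM, others 2456 to 3088), Ngp (11907 FPKM, others 7487 to 8972) and Lcn2 (2102 FPKM, others 1331 to 1637). In the brimonidine group, brimonidine 3 was far above the others for Lcn2 (1955 FPKM, others 1444 to 1587). Without NE 6, brimonidine minus NE on the log2 scale was 0.11 for Camp, 0.07 for Ngp and 0.03 for Lcn2.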

How the results depend on the processing

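For brimonidine against NE, all 200 values of the 8 members under the alternatives moved by less than the spread between replicates. Olfm4 stayed between 0.49 and 0.58, Mmp8 between 0.29 and 0.42, Chil3 between 0.31 and 0.40 and Ltf between -0.14 and -0.01. The sign changed for Camp (-0.05 to 0.11), Ngp (-0.04 to 0.15), Lcn2 (-0.08 to 0.03) and Cd177 (-0.07 to 0.10). For NE against control, each alternative called 0 members. For brimonidine against control, 1 member (Chil3) was called, and 0 were with a pseudocount of 0.1, no filter, quantile normalization, array weights or a replicate block, and 2 without a minimum fold change. Leaving out 1 library gave 0 to 2, with 2 without control 1 and 0 without control 2 or any brimonidine library. Each count covers all 8 members, and where it was 2 the second gene was one chosen by its brimonidine values, which is not read as a call. Chil3 was added with its brimonidine values known, so its call is a description. Without control 2, calls over all genes fell from 918 to 368 for NE and from 913 to 468 for brimonidine against control. With array weights, NE against control fell for all 8 members, to -0.049 for Olfm4, 0.049 for Mmp8, 0.085 for Chil3, 0.026 for Lcn2, 0.034 for Cd177, 0.30 for Ngp and 0.29 for Ltf, and brimonidine against control to 0.0091 (Lcn2) to 0.50 (Olfm4). For NE against control, Camp turned to -0.025 with array weights, to -0.14 relative to other neutrophil genes and to -0.013 without control 2, and Cd177 to -0.0029 without control 2, where leaving out any other library gave at most 0.91 for Camp and 1.13 for Cd177. For brimonidine against control, Camp turned to -0.13, Ltf to -0.034 and Cd177 to -0.062 relative to other neutrophil genes, and Cd177 to -0.033 without control 2 (at most 1.10, without control 1), while Chil3 had 0.38 relative to those genes (adjusted p = 0.212, limma). On that scale Olfm4 had -0.59 and Mmp8 -0.11 for NE, and Olfm4 -0.10 and Mmp8 0.20 for brimonidine, against control. On it but without control 2, NE against control had -0.14 for Olfm4, -0.050 for Mmp8, -0.058 for Camp, -0.0080 for Lcn2 and -0.048 for Cd177, and brimonidine against control 0.35 for Olfm4, 0.25 for Mmp8, 0.51 for Chil3, -0.052 for Camp, -0.074 for Lcn2 and -0.11 for Cd177. The cause of these changes was not tested. Quantile normalization moved the median of all genes from -0.04 to 0.06 for NE against control. Among the 10 genes most alike, 6 were shared without centring and 3 in the 14 exposed libraries.

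The replicate numbers did not pair the libraries: same-numbered deviations correlated between -0.23 and 0.02 for NE and control, -0.20 and 0.08 for brimonidine and control, and -0.15 and 0.08 for brimonidine and NE, and 1, 0 and 0 of 6, 6 and 14 libraries correlated best with their own number. With the replicate block, calls over all genes went from 918 to 0, from 913 to 236 and from 0 to 0, and 0 members were called. With 3 control libraries, 1 of which stands apart, differences from control are imprecise.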
